A study of Mus musculus with 2 samples.

Results

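Macrophages of the mouse uterus were examined in single-cell RNA sequencing of whole uteri taken on gestational day 4. Of 13935 barcodes kept in both libraries, 518 were macrophages: 243 of 7610 in the library of the Mettl14 f/f genotype and 275 of 6325 in the library of the Mettl14 d/d genotype. Mettl14 encodes a subunit of the methyltransferase that writes N6-methyladenosine on RNA. The f/f uterus carries the floxed gene and served as the control, and the d/d uterus carries the deleted gene. The promoter that drove the deletion, the age and strain of the mice and the number of animals behind each cell suspension are not given in the sources used here. Each genotype is 1 library, so no test between genotypes was possible. Differences below are between these 2 libraries, and every interval is a 95% interval that covers counting error only.

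A kept barcode had 1000 or more unique molecular identifiers (UMIs, counts of single RNA molecules) from 500 or more genes, with no more than 20% of them mitochondrial. A macrophage had a UMI of at least 4 of the 8 genes C1qa, C1qb, C1qc, Csf1r, Adgre1, Ms4a7, Lyz2 and Cd68, at least 3 summed UMIs of the 3 C1q genes, and no UMI of Epcam, Pecam1, Cd3e, Cd3d or Ncr1. These genes chose the cells, so their levels are given as a description only.

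Macrophages are phagocytes that take up dying cells and lipoprotein, sense microbes and damage through surface receptors, and release cytokines and chemokines that call in other leukocytes. Colony-stimulating factor 1, which the uterus makes under ovarian hormones, maintains them through its receptor Csf1r. In the uterus they lie in the endometrial stroma and the myometrium. Tissue macrophages in general include long-lived resident cells, marked by genes such as Mrc1, Folr2 and Pf4, and cells that arrive as blood monocytes and carry the chemokine receptor Ccr2.

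The cells carried a macrophage profile in both libraries. The complement genes C1qa, C1qb and C1qc, whose products form the recognition unit of the classical complement pathway, had a UMI in 97.9%, 97.9% and 93.8% of f/f macrophages and in 96.4%, 98.5% and 98.5% of d/d macrophages. Csf1r had a UMI in 56.0% of f/f and 79.6% of d/d macrophages, and Adgre1, the F4/80 antigen, in 56.8% and 73.5%. These shares are at unequal depth, with a median of 2278 UMIs per f/f macrophage against 4718 per d/d macrophage. The 20 genes with the highest ratio over the other kept cells included several that the choice of cells did not use directly: the complement receptors C3ar1 and C5ar1, the lipid receptor Trem2, the chemokines Ccl12, Ccl8, Pf4 and Cxcl2, the chemokine receptor Cx3cr1, the Fc receptor Fcgr3, the lectins Clec4a1 and Clec4a3, Fcrls and Apoe. C3ar1, for example, stood at 189 counts per 1000000 UMIs (CPM, summed over the cells of a library) in f/f macrophages against 1.02 in the other f/f cells, and at 387 against 2.91 in d/d. These genes belong to the cells that were chosen, so the contrast is a description.

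Markers of other leukocytes were at or near 0. Of 5 mast cell markers, 4 were at 0 in f/f macrophages and 5 in d/d, and the 6 natural killer markers summed to 9.96 CPM in f/f and 1.35 in d/d. Dendritic cell markers summed to 16.9 and 18.2 CPM. The neutrophil markers summed to 25.9 CPM in f/f and 88.3 in d/d, almost all from the cytokine receptor Csf3r (24 of 26 and 126 of 131 UMIs), with S100a9, Cxcr2 and Retnlg at 0 in both libraries. The T cell markers summed to 9.96 and 141 CPM, from Il7r (10 of 10 and 207 of 209 UMIs), with Trac and Cd2 at 0 in both. Il7r, the interleukin 7 receptor, was singled out after its values were seen: it had UMIs in 7 f/f and 58 d/d marker-low macrophages. The label of the cells as macrophages matched these markers, with the exception of the tissue markers described next. The rule left out barcodes with a UMI of Cd3e, Cd3d or Ncr1. Low levels of other T cell and natural killer markers are thus partly set by the choice of cells.

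Many f/f macrophage barcodes also held markers of other tissue cells. A set of 39 markers of 7 tissue classes (stroma, smooth muscle, pericyte, endothelium, lymphatic, epithelium and mesothelium) made up 0.706% of the UMIs of f/f macrophages and 0.336% of those of d/d macrophages. In the other kept cells the share was 1.24% and 1.70%. Stromal markers such as Dcn and Col1a1 summed to 5506 CPM in f/f macrophages against 2044 CPM in d/d ones. Barcodes with more than 0.2% tissue markers numbered 98 in f/f and 45 in d/d. They were larger (median 5942 and 7799 UMIs) and held 70.7% of all f/f macrophage UMIs but 28.1% of all d/d macrophage UMIs. Scrublet, a caller of barcodes that hold 2 cells, marked 30 of these 98 and 22 of these 45.

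The remaining 145 f/f and 230 d/d macrophages, with at most 0.2% tissue markers, are called marker-low below. Scrublet marked 0 of them in either library. Their stromal markers summed to 503 CPM (f/f) against 216 CPM (d/d). The median f/f cell among them held 1859 UMIs of 944 genes, the median d/d cell 4342.5 UMIs of 1578 genes. This subset was chosen after the data were seen, and its choice used the 39 markers. Because summed counts of all f/f macrophages come mostly from marker-rich barcodes, each value below is given for the marker-low cells beside that for all macrophages.

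**Figure D1:**
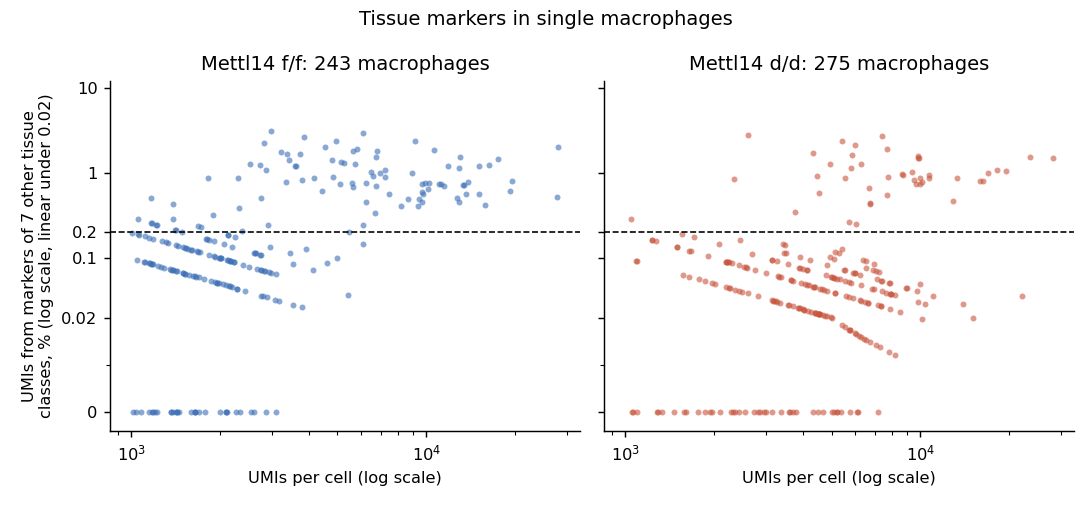
UMIs per macrophage (x axis, log scale) against the percent of those UMIs from 39 markers of other tissue classes (y axis, log scale above 0.02), 1 point per cell, with the dashed line at 0.2%. In f/f, 98 of 243 points lie above the line and hold most of the large barcodes, and in d/d 45 of 275 do.

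Macrophages were a larger share of kept cells in d/d. The share was 3.19% (2.81 to 3.61, exact binomial) in f/f and 4.35% (3.86 to 4.88) in d/d, a ratio of 1.36 (1.14 to 1.62). Among marker-low cells it was 1.91% and 3.64%, a ratio of 1.91 (1.54 to 2.37), and for marker-rich barcodes it went the other way, with 1.29% and 0.711%. With a minimum of 2000 UMIs per barcode the ratio was 1.96. Natural killer cells went the other way, with 225 f/f and 56 d/d cells. C1q-low myeloid cells, a neighbouring class chosen by Lyz2, Cd68, Tyrobp and related genes with fewer than 3 C1q UMIs, numbered 59 and 77.

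At the border of the C1q rule, 9 f/f and 6 d/d macrophages had only 3 or 4 C1q UMIs, and 4 and 16 cells just outside had 1 or 2. With the minimum of 4 of the 8 genes there were 23 f/f macrophages but 2 d/d ones, and 6 and 2 cells just outside had 3. Around the marker-low limit, 61 f/f and 26 d/d macrophages held tissue markers at 0.1% to 0.4%. Per macrophage, the C1q sum reached a median of 17 UMIs (f/f) against 26 (d/d). All 8 genes were detected in 37 f/f and 111 d/d macrophages. Both comparisons are at unequal depth, since the median macrophage barcode held 2278 UMIs (f/f) against 4718 (d/d). Scaled to totals, C1qa, C1qb and C1qc were lower in d/d among marker-low cells. They stood at 4536, 3463 and 2800 CPM (f/f) against 2714, 2872 and 1922 CPM (d/d). Over all macrophages they were higher in d/d, at 1935, 1562 and 1249 CPM (f/f) against 2201, 2332 and 1577 CPM (d/d). A further 44 f/f and 30 d/d barcodes met the rest of the rule and were left out for a UMI of Epcam, Pecam1, Cd3e, Cd3d or Ncr1.

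For comparison across genes, the UMIs of all macrophages of a library were summed and scaled to their total. With at least 50 UMIs over both libraries, 5976 genes were measured in all macrophages and 3503 in marker-low macrophages. Genes at least 2-fold higher in d/d were 614 (10.3% of those measured) among all macrophages and 375 (10.7%) among marker-low macrophages. Genes at least 2-fold lower were 828 (13.9%) and 220 (6.28%). The d/d library holds more marker-low UMIs, so a gene can reach the minimum through d/d alone. Of the 797 genes with 50 marker-low UMIs in f/f alone, 5.77% were that much higher and 7.53% lower. Counts within a list are therefore partly set by this minimum and are given as a description. Of the 828, 650 had a higher CPM in the other f/f cells than in f/f macrophages, as did 68 of the 220. The all-macrophage list of lowest genes was led by Fst, Angptl7 and Vit, each with more CPM in f/f stromal cells (277, 239 and 225) than in f/f macrophages (134, 134 and 109) and with 1, 3 and 3 UMIs in f/f marker-low macrophages. Of 696 genes past 2-fold in all macrophages that were also measured in marker-low ones, 9 had the opposite sign there. The median log2 ratio of d/d over f/f was -0.21 over all measured genes and -0.12 among marker-low cells. Scaling by trimmed means (TMM) in place of totals would raise every marker-low log2 ratio by 0.38, so marker-low list medians between -0.38 and 0 change sign under it. In all macrophages it moved the median of all measured genes from -0.21 to 0.14.

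Mettl14 itself was too sparse in macrophages to check the deletion there. It had 14 UMIs in f/f macrophages (13.9 CPM) and 12 in d/d (8.09 CPM), a log2 ratio of -0.79 (-2.03 to 0.43). In marker-low cells it had 4 and 9 UMIs, with a ratio of -0.69 (-2.53 to 1.46). In stromal cells of the same libraries Mettl14 stood at 14.6 and 2.66 CPM, a log2 ratio of -2.46. The interval over all macrophages runs from -2.03, above the stromal ratio, to 0.43, so a lower level in d/d macrophages was not detectable at this depth. Of the other writers, readers and erasers of N6-methyladenosine, 0 of 13 measured genes in all macrophages and 0 of 10 in marker-low ones passed 2-fold. Their medians were -0.29 and 0.06. Over all measured genes 10.3% were higher and 13.9% lower in all macrophages, and 10.7% and 6.28% in marker-low ones. For the 10 marker-low genes a count of 0 thus lies near the background, and 9 of them reached the minimum only with the d/d UMIs.

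Inflammatory genes had the highest list median in d/d macrophages. Of the list of 24 cytokines and nuclear factor kappaB (NF-kappaB) targets, 21 were measured in all macrophages and 21 were at least 2-fold higher. Among marker-low cells 20 of 21 were, with Bcl3 the exception at a log2 ratio of 0.58. Over all measured genes 10.3% and 10.7% were that much higher. In marker-low cells 16 of the 21 reached the minimum of 50 UMIs only with those of d/d, where they were high, so they had to lean that way. The 5 that reached it in f/f alone, Il1b, Nfkbia, Nfkbiz, Cd83 and Ier3, were each at least 2-fold higher, at 1.96, 2.73, 1.35, 1.18 and 1.47. The list's median log2 ratio was 3.07 in all macrophages and 2.20 in marker-low ones. In the other kept cells the list's summed CPM was also higher in d/d, by 1.49 on the log2 scale, against 2.07 in marker-low macrophages.

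The neutrophil-attracting chemokines Cxcl1 and Cxcl2 ranked 1 and 3 among the highest genes, with Il1a between them in all macrophages and Gpnmb in marker-low ones. The 2 genes lie close together on chromosome 5, and the 250 bases before each start (GRCm38, plus strand, from RefSeq) are shown because both windows match the NF-kappaB (kappaB) consensus, a motif of 10 letters, with the matched letters in capitals. The first window spans chr5:90890995-90891244 and the second chr5:90903649-90903898.
Cxcl1: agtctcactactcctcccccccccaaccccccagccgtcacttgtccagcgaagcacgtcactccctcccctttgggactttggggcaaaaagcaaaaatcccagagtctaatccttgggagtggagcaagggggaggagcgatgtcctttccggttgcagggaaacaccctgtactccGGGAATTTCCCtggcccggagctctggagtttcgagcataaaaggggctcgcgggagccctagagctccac
Cxcl2: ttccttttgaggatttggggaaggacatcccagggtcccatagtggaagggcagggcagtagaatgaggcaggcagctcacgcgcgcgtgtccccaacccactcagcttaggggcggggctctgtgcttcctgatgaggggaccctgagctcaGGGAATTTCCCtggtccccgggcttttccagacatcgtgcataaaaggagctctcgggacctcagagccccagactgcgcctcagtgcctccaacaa
The same letters matched in both windows, once on each strand with an overlap of all but 1 letter. The match on the plus strand begins 71 bases before the start of Cxcl1 and 97 before that of Cxcl2. On either strand, 1281 of 32851 such windows (3.9%) held a match. Of the 18 inflammatory list genes with a window, 8 did: Ier3, Il6, Nfkbia, Nfkbid, Nlrp3, Rel, Sod2 and Tnfaip3. A match is a description of the letters, and nothing about binding was measured.

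Cxcl2 numbered 300 UMIs among f/f macrophages (299 CPM) against 11892 among d/d ones (8012 CPM), a log2 ratio of 4.74 (4.58 to 4.91). In marker-low cells it stood at 788 and 9618 CPM, a log2 ratio of 3.61 (3.42 to 3.80). The transcript was concentrated in few f/f cells and spread over most d/d cells. Of f/f marker-low macrophages 39 had a UMI, and 5 cells held 53.4% of the UMIs, whereas in d/d 195 cells had one and the top 5 held 14.0%. When each cell was thinned at random to 1000 UMIs, 29 of 145 f/f marker-low macrophages (13.8% to 27.4%) had a Cxcl2 UMI, against 81.7% (76.1 to 86.5) in d/d. Unthinned, the shares with a UMI were 26.9% and 84.8%. Stromal cells had one in 0.0558% and 1.03% after thinning, and in 0.697% and 5.58% before it. Whether this came from free RNA or from the stromal cells was not tested. Cxcl1 had 1 UMI in f/f and 301 in d/d marker-low cells, a log2 ratio of 6.38 (3.89 to 11.68).

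Cytokines of the interleukin 1 and tumor necrosis factor families differed in the same direction. Il1b, whose product the inflammasome processes for release, stood at 466 CPM in f/f and 1815 in d/d marker-low macrophages, a log2 ratio of 1.96 (1.71 to 2.22). After thinning, a UMI of it was found in 20.7% of the f/f cells against 57.0% of the d/d cells. Il1a had 0 UMIs over the f/f and 117 over the d/d marker-low cells, 10.8-fold higher with 3 counts set for the f/f group. Its lower interval limit was 3.11 on the log2 scale. Il6 had 0 and 50, which is 4.60-fold higher by the same setting, with a lower limit of 1.85. Tnf went from 74.8 to 467 CPM, a log2 ratio of 2.64 (2.03 to 3.33). The inflammasome sensor Nlrp3 stood at 68.0 and 470 CPM.

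The list also holds genes that restrain inflammation. Il1rn, the interleukin 1 receptor antagonist, stood at 57.8 CPM in f/f and 610 in d/d marker-low cells, a log2 ratio of 3.40 (2.71 to 4.19). Tnfaip3 and Nfkbia, which encode feedback inhibitors of NF-kappaB, had log2 ratios of 2.90 and 2.73. Ptgs2, the inducible cyclooxygenase of prostaglandin synthesis, had 11 UMIs over the f/f and 735 over the d/d marker-low macrophages, or 37.4 and 689 CPM, a log2 interval of 3.36 to 5.21. After thinning, 2.76% and 30.9% of cells had a Ptgs2 UMI. Clec4e, a lectin receptor for glycolipids and dead cells, had 1 and 160 UMIs, a log2 ratio of 5.46 (2.97 to 10.78).

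Receptors that sense microbes split. Of 14 measured pattern recognition genes, 4 were at least 2-fold higher in marker-low d/d macrophages and 0 lower: Clec4d, Nlrp3, Cd14 and Tlr2, with log2 ratios of 4.35, 2.79, 2.46 and 1.23. The shares over all measured genes were 10.7% and 6.28%, and 3 of the 4 reached the minimum only with the d/d UMIs. Cd14, the co-receptor for lipopolysaccharide, had a UMI in 24.1% of f/f and 69.1% of d/d marker-low cells after thinning. The other members lay within 2-fold, among them Ly86 at -0.63 and Tlr7 at 0.18. The list's median was -0.22 in marker-low cells and 0.79 in all macrophages.

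**Figure D2:**
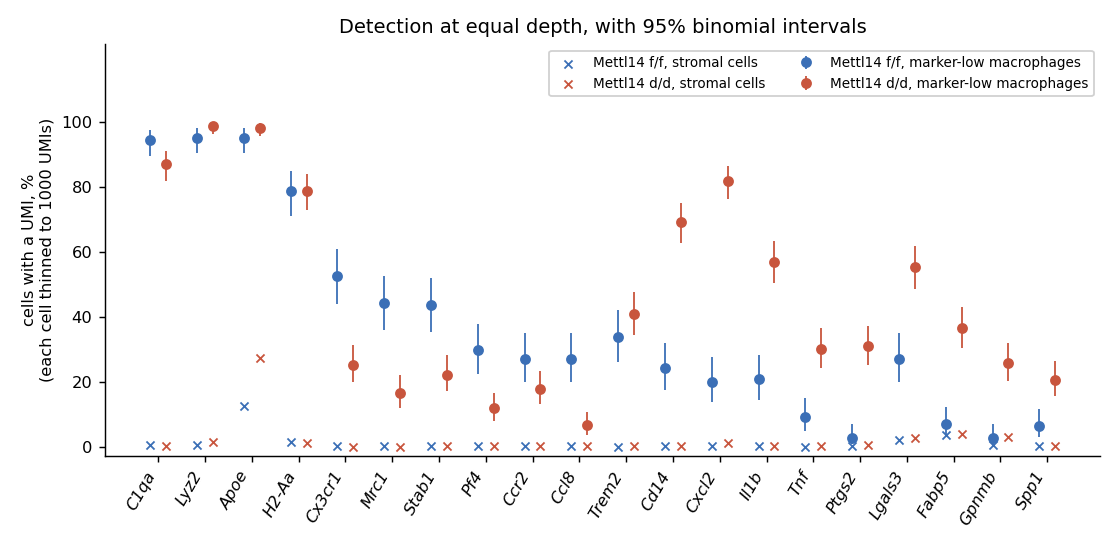
Percent of marker-low macrophages with a UMI of each gene after every cell was thinned to 1000 UMIs (circles, with 95% binomial intervals), and of stromal cells treated the same way (crosses), for f/f in blue and d/d in red. C1qa, Lyz2, Apoe and H2-Aa were detected in most macrophages of both libraries, Cx3cr1, Mrc1, Stab1, Pf4 and Ccl8 in more f/f cells, and Cd14, Cxcl2, Il1b, Tnf, Ptgs2, Lgals3, Fabp5, Gpnmb and Spp1 in more d/d cells.

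Chemokines went both ways. Of 15 measured in marker-low macrophages, 5 were at least 2-fold higher in d/d and 4 at least 2-fold lower. The shares over all measured genes were 10.7% and 6.28%. Among all macrophages 8 and 4 of 17 were, against 10.3% and 13.9%. The 5 higher ones in marker-low cells were Cxcl1, Cxcl2, Cxcl10, Cxcl9 and Ccl5, and 4 of them reached the minimum only with the d/d UMIs. Cxcl10, an interferon-induced attractant of T cells, stood at 27.2 and 320 CPM, a log2 ratio of 3.56 (2.56 to 4.78). Cxcl9 rested on few cells, with UMIs in 2 f/f and 13 d/d marker-low macrophages. The lower ones were the monocyte attractants Ccl8, Ccl7 and Ccl12 and the platelet factor Pf4. Ccl8 stood at 1145 CPM in f/f and 142 in d/d, a log2 ratio of -3.01 (-3.29 to -2.73), in 46 f/f and 24 d/d cells. Ccl7 had a log2 ratio of -1.75 and Ccl12 of -1.13. Ccl2 lay at -0.99. Ccl3 and Ccl4, attractants of other leukocytes, lay within 2-fold at 0.53 and 0.15.

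Genes of resident macrophages were lower in d/d. Of 24 on the list, 13 were measured in all macrophages, where 6 were lower by 2-fold or more and 0 higher. In marker-low cells 10 were measured and 7 were at least 2-fold lower: F13a1, Gas6, Mrc1, Pf4, Fcgrt, Stab1 and Igf1. Of all measured genes there 6.28% were that much lower. The minimum was reached in f/f alone, where resident genes were high, by 8 of the 10, and 14 of the 24 were not measured. The list's median log2 ratio was -1.65 in marker-low and -0.84 in all macrophages. In the other kept cells Igf1 (1491 CPM in f/f and 473 in d/d) exceeded the macrophage level, and Gas6 did in d/d.

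Mrc1, the mannose receptor, stood at 795 CPM in f/f and 216 in d/d marker-low macrophages, a log2 ratio of -1.88 (-2.15 to -1.61). In all macrophages the log2 ratio was -1.03. After thinning, 44.1% (35.9 to 52.6) of f/f and 16.5% (11.96 to 21.96) of d/d marker-low cells had a Mrc1 UMI. The scavenger receptor Stab1 had a UMI in 43.4% and 22.2%, and Pf4 in 29.7% and 11.7%. Folr2, a folate receptor of resident cells, stood at 105 and 14.1 CPM, from 31 UMIs in 18 f/f cells and 15 in 13 d/d cells, too few to count among the measured genes. F13a1, a clotting factor subunit, stood at 143 and 15.0 CPM. Markers of other resident subsets were scarce in both libraries. Timd4, Vsig4 and Cd163 had 0 UMIs in marker-low cells, which allows a UMI in up to 2.07% of the f/f and 1.30% of the d/d cells by 3 counts of the total, a limit on cells with a UMI and not on cells that express the gene, and Lyve1, the marker of perivascular macrophages, had a UMI in 0.690% and 0.435% after thinning.

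Within f/f, cells with Mrc1 carried more of the other resident genes. The 64 f/f marker-low macrophages with a Mrc1 UMI among 1000 had more Ccl8 (2358 against 349 CPM), F13a1 (343 against 11.3), Pf4 (969 against 276) and Stab1 (1037 against 422) than the 81 without, and less Ccr2 (249 against 647) and H2-Aa (4218 against 6445). In d/d, 38 cells had a Mrc1 UMI, and in them Ccl8 stood at 768 CPM against 39.3 in the other 192. H2-Aa was not lower in the d/d cells with Mrc1, at 7239 against 4917 CPM. The split used Mrc1, and the values describe the cells.

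Genes of interleukin 4 type activation included the gene ranked 1 among the lowest in marker-low cells, which rested on few cells. Retnla, a secreted resistin-like protein, had 90 UMIs over the f/f and 12 over the d/d marker-low macrophages, a log2 ratio of -4.76 (-5.77 to -3.89), but the 90 came from 4 cells and the 12 from 1. The other genes of this list past 2-fold were Mrc1 and Fn1. Of 8 measured list genes, 3 were thus lower and 0 higher, against 6.28% and 10.7% of all measured genes. All 3 reached the minimum in f/f alone, where they were high. For Fn1 the other f/f cells had a higher CPM than f/f marker-low macrophages. The lectins Mgl2 and Clec10a had 28 and 22 UMIs in f/f and 12 and 24 in d/d marker-low cells, under the minimum for a measured gene. Arg1 and Chil4 had 2 UMIs at most. The list's median was -0.50 in marker-low cells and 0.00 in all macrophages.

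Lipid and lysosomal genes were higher in d/d in part. Among all macrophages 13 of 24 were at least 2-fold higher and 0 lower, with a median log2 ratio of 1.11. Among marker-low cells 8 of 24 were, against 10.7% of all measured genes, with a median of 0.51. They were Gpnmb, Fabp5, Fabp4, Spp1, Lgals3, Cd9, Plin2 and Lpl. Of these 8, 4 reached the minimum only with the d/d UMIs (Gpnmb, Fabp4, Spp1 and Cd9), so the count is partly set by that minimum. Among the 19 list genes that reached it in f/f alone, 4 were at least 2-fold higher and 0 lower, with a median log2 ratio of 0.38. Gpnmb, a lysosomal glycoprotein of lipid-laden macrophages, stood at 47.6 CPM in f/f and 971 in d/d, a log2 ratio of 4.35 (3.60 to 5.23), with a UMI in 2.76% and 25.7% of thinned cells. Stromal cells had one in 0.4% and 2.9%. Fabp5, a fatty acid carrier, stood at 296 and 1976 CPM, a log2 ratio of 2.74 (2.43 to 3.07), though 1 f/f cell held 50.6% of the f/f UMIs. Spp1, or osteopontin, stood at 143 and 651 CPM, and the galectin Lgals3 at 584 and 2388. The lysosomal enzymes and membrane proteins differed less, with Ctsd at 0.25, Lamp1 at -0.05, Grn at -0.43 and Psap at 0.54. Trem2, the receptor tied to this state in other tissues, had a log2 ratio of 0.73 and was detected in 33.8% and 40.9% of thinned cells.

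Some of the lipid genes were higher in d/d cells with Gpnmb than in the other d/d cells. The 59 d/d marker-low macrophages with a Gpnmb UMI among 1000 had 4925 CPM of Fabp5 against 614 in the 171 without, 1673 against 178 of Spp1, 4794 against 1277 of Lgals3 and 1107 against 530 of Trem2. They had less H2-Aa (1952 against 6768 CPM), Il1b (667 against 2345), Ccr2 (47.5 against 334) and Cx3cr1 (104 against 436). Cxcl2 was at 8419 CPM in the cells with Gpnmb and 10172 in those without, so both groups held it. The cells of both groups had similar C1qa, at 2355 and 2879 CPM. In f/f, 4 marker-low cells had a Gpnmb UMI among 1000, too few to describe. The 141 f/f cells without one had 63.6 CPM of Fabp5, 81.3 of Spp1, 417 of Lgals3 and 396 of Trem2. Each lay below the d/d cells without Gpnmb, so the difference between libraries was not limited to cells with Gpnmb. The split used Gpnmb, itself on the list, and the values describe the cells.

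**Figure D3:**
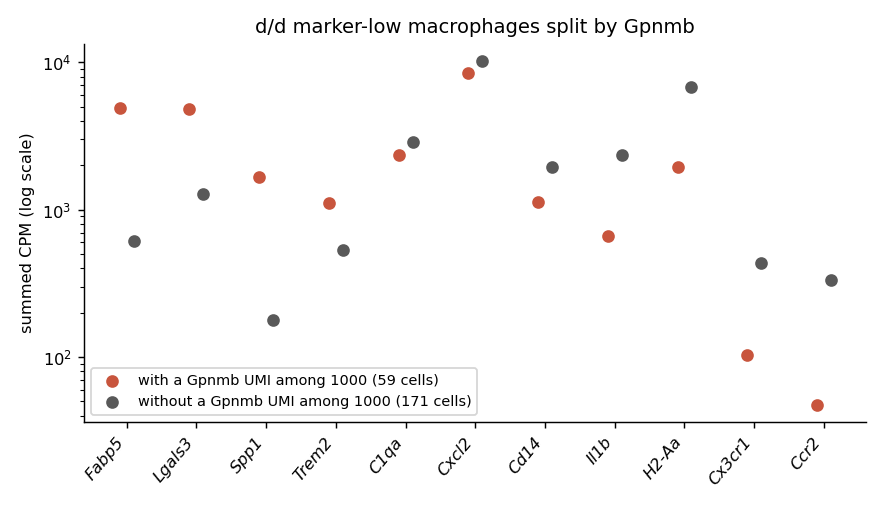
Summed CPM (log scale) of 11 genes in d/d marker-low macrophages with (red, 59 cells) and without (grey, 171 cells) a Gpnmb UMI after thinning to 1000 UMIs. Fabp5, Lgals3, Spp1 and Trem2 lie higher in the cells with Gpnmb, H2-Aa, Il1b, Cx3cr1 and Ccr2 lie lower, and Cxcl2 and C1qa lie close together.

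Mmp12 and Mfge8 were also far higher in d/d but came from few cells. Mmp12, an elastase of macrophages, had 16 UMIs from 3 f/f cells and 478 UMIs from 35 d/d cells, all marker-low. Mfge8, a bridge between dying cells and phagocytes, had 8 and 567 UMIs, and 5 of the d/d cells held 94.9% of them. Its log2 ratio of 4.29 thus describes a handful of cells.

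The antigen presentation list holds MHC class II genes together with Cd86, Cd40, Cd72 and Cd52. Its genes lay within 2-fold among marker-low macrophages, with 1 exception of 11. Of all measured genes there, 10.7% were at least 2-fold higher and 6.28% lower, so this count lies near the background. The class II chains H2-Aa, H2-Ab1 and H2-Eb1 and the invariant chain Cd74 had log2 ratios of -0.08, -0.06, -0.06 and -0.18. H2-Aa had a UMI in 78.6% of f/f and 78.7% of d/d thinned cells. The co-stimulatory receptor Cd40 was past 2-fold at 1.11 (0.35 to 1.96). In all macrophages the list's median was 0.91, and 3 of 11 genes were at least 2-fold higher, against 10.3% of all measured genes. The same held for 28 core macrophage genes that the rule did not use: 9 were at least 2-fold higher among all macrophages (median 0.71), whereas 1 was higher and 2 were lower among marker-low cells (median -0.19). The one higher was Cd14, and the lower ones were Cx3cr1 and the transcription factor Maf. Cx3cr1, the fractalkine receptor, stood at 836 and 331 CPM, a log2 ratio of -1.34 (-1.58 to -1.10). Apoe, the apolipoprotein, stood at 26229 and 36697 CPM, a log2 ratio of 0.48 (0.45 to 0.52).

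**Figure D4:**
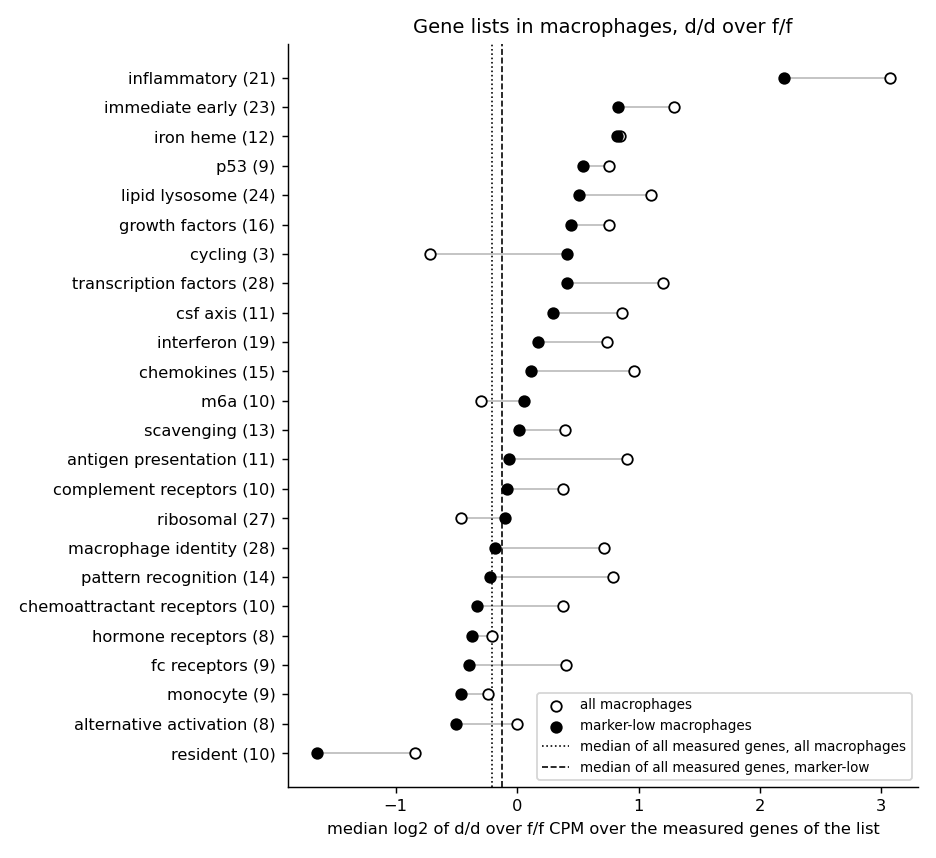
Median log2 ratio of d/d over f/f CPM (x axis) of the measured genes of 24 lists in all macrophages (open circles) and in marker-low macrophages (filled circles, number of measured genes in brackets), with the medians of all measured genes as vertical lines at -0.21 and -0.12. The inflammatory list lies highest in both sets and the resident list lowest in both, and the filled circles of most other lists lie closer to the vertical lines than the open ones.

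Genes of monocytes were mixed, with 2 of 9 measured at least 2-fold higher and 4 lower in marker-low d/d cells. The shares over all measured genes were 10.7% and 6.28%, and the 2 higher ones reached the minimum only with the d/d UMIs. Ccr2, the receptor that brings monocytes into tissue, stood at 489 CPM in f/f and 244 in d/d, a log2 ratio of -1.01 (-1.30 to -0.70), but at 0.06 in all macrophages. A UMI of it was found in 26.9% and 17.8% of thinned cells. Plac8, S100a6 and Fn1 were also lower, and for each the other f/f cells had a higher CPM (1644, 3213 and 940) than f/f marker-low macrophages (360, 744 and 258). Thbs1, a matrix glycoprotein, was higher at 57.8 and 645 CPM. The classical monocyte marker Ly6c2 was scarce, with 1 UMI in f/f macrophages and 17 in d/d.

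Of 11 measured genes of the colony-stimulating factor pathway, 0 were past 2-fold in either direction in marker-low cells, with a median of 0.29. Over all measured genes 10.7% were higher and 6.28% lower, so for 11 genes a count of 0 lies near the background. Csf2ra and Csf2rb had log2 ratios of 0.68 and 0.37, and Csf1r, used in the rule, of -0.25. Csf1r stood at 550 and 463 CPM there, and Adgre1, also used in the rule, at 578 and 426 CPM. In all macrophages the log2 ratios of Csf1r and Adgre1 were 0.68 and 0.60. Among 9 Fc receptor genes, 2 were lower, Fcrls at -2.33 (-2.69 to -1.99) and Fcgrt at -1.68, while the activating receptors Fcgr1, Fcgr3 and Fcgr4 lay at -0.40, -0.28 and -0.62. Among 10 complement genes, 3 were lower and 1 higher. C4b, a component of the classical pathway, stood at 211 and 16.9 CPM, a log2 ratio of -3.64 (-4.49 to -2.87), while C3 stood at 10.2 and 82.5 CPM from 3 and 88 UMIs. In the other kept cells C4b was not lower in d/d, at 15.8 and 37.9 CPM.

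Receptors for chemoattractants showed 2 higher and 3 lower of 10 measured. The shares over all measured genes were 10.7% and 6.28%, and the 2 higher ones reached the minimum only with the d/d UMIs. Ccrl2, an atypical receptor of chemerin, stood at 163 and 652 CPM, a log2 ratio of 2.00 (1.58 to 2.45), and Ccr1 at 16.99 and 47.8. Lower beside Ccr2 and Cx3cr1 was P2ry6, a nucleotide receptor, at -1.41. Among 13 genes of scavenging, Tgm2 and Cd300a were higher and Gas6, Mrc1, Stab1 and Dab2 lower. Tgm2 and Cd300a also reached the minimum only with the d/d UMIs. The receptors for dying cells Axl and Mertk lay at 0.13 and 0.87.

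Growth factors and matrix ligands included large differences in both directions, with 7 of 16 measured at least 2-fold higher and 3 lower among marker-low cells (10.7% and 6.28% of all measured genes). All 7 reached the minimum only with the d/d UMIs. Vegfa, the angiogenic factor, stood at 40.8 and 409 CPM, a log2 ratio of 3.33 (2.51 to 4.29). The epidermal growth factor family ligands Hbegf and Areg had 3 and 118 UMIs and 0 and 84 UMIs. Areg was 7.72-fold higher with 3 counts set for f/f, with a lower interval limit of 2.62 on the log2 scale. However, 5 d/d cells held 78.6% of the Areg UMIs. Osm, a cytokine of the interleukin 6 family, stood at 51.0 and 228 CPM. Igf1 was lower, at 319 and 137 CPM, a log2 ratio of -1.22 (-1.61 to -0.83).

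Transcription factors followed a similar division. Of 28 measured, 10 were at least 2-fold higher in marker-low d/d macrophages, against 10.7% of all measured genes. However, 7 of these 10 reached the minimum only with the d/d UMIs, so the count is partly set by that minimum. Among the 14 factors that reached it in f/f alone, 3 were higher and 2 lower, with a median log2 ratio of -0.13. The 2 that were lower are near the background of 6.28%. Nfil3, Nr4a3, Nr4a2, Cebpb and Nr4a1 were higher, with log2 ratios of 3.79, 2.56, 2.10, 2.02 and 1.79. Cebpb, a factor of the inflammatory response, stood at 449 and 1815 CPM. Klf2, a factor that restrains myeloid activation, was lower at 496 and 61.9 CPM, a log2 ratio of -3.003 (-3.45 to -2.57), and so was Maf. The lineage factor Spi1 lay at 0.11 and Irf8 at -0.22.

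Immediate early and heat shock genes differed in part. In marker-low cells 10 of 23 were at least 2-fold higher (10.7% of all measured genes were), 12 lay between and 1, Klf2, was lower, with a median log2 ratio of 0.83. Those within 2-fold included Jun at -0.33 and the heat shock genes Hspa1a, Hspa1b, Hsp90aa1 and Hspa8 at 0.75, 0.34, 0.43 and 0.13. The list's summed CPM differed by 0.76 on the log2 scale in marker-low macrophages and by 1.52 in the other kept cells. Egr1 stood at 428 and 1621 CPM in marker-low macrophages and at 560 and 2357 CPM in the other cells. Junb stood at 1339 and 3674 CPM against 266 and 1248 CPM. The part of this tissue-wide difference in the other values was not tested.

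Iron and heme genes went both ways, with 3 of 12 measured at least 2-fold higher and 2 lower in marker-low cells. The shares over all measured genes were 10.7% and 6.28%. The higher ones were Hmox1, Fth1 and the iron carrier Slc11a2, and the lower ones Cp, or ceruloplasmin, at -2.24 and Hfe at -1.43. Hmox1, which breaks down heme, stood at 177 and 849 CPM in marker-low cells, a log2 ratio of 2.26 (1.86 to 2.70), and at 12.04 and 182 CPM in the other cells. The ferritin heavy chain Fth1 stood at 9090 and 20015 CPM, while it was level in the other cells at 2340 and 2209 CPM. Outside this list, Slc7a11, the cystine carrier, had 1 and 144 UMIs, and the metallothionein Mt1 stood at 459 and 3770 CPM. Among 9 measured p53 targets 4 were higher: Gdf15, Cdkn1a, Mdm2 and Gadd45a, at 2.44, 2.38, 2.10 and 1.39. Mdm2 and Gadd45a reached the minimum only with the d/d UMIs. Cdkn1a, the inhibitor of cell division p21, had a UMI in 15.9% of f/f and 50.9% of d/d thinned cells. In the other cells Gdf15 stood at 2.46 CPM (f/f) and 86.6 CPM (d/d), and Cdkn1a at 24.7 and 279 CPM.

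Of 19 measured interferon response genes, 6 were at least 2-fold higher in marker-low cells, against 10.7% of all measured genes, and 0 were lower. The list's median log2 ratio was 0.17. All 6 reached the minimum only with the d/d UMIs. Isg15 had 5 and 102 UMIs, and Irf1 stood at 64.6 and 213 CPM, whereas Bst2 lay at 0.08. Of 26 genes of dividing cells, 3 were measured in marker-low cells. Pcna, the sliding clamp of DNA replication, was higher at 64.6 and 150 CPM, a log2 ratio of 1.22 (0.53 to 1.99), Stmn1 was lower at -1.38 and Hmgb2 lay at 0.41. Mki67 had a UMI in 0.690% of the f/f and 1.74% of the d/d marker-low cells after thinning, and in 0.690% and 6.96% before it. Ccnd1, a cyclin of the start of the cycle, was lower at 183 and 28.1 CPM. In all f/f macrophages 72 UMIs of Top2a were found, 3 of them in marker-low cells. The progesterone and estrogen receptors Pgr and Esr1 were sparse in marker-low macrophages, at 37.4 and 3.75 CPM and at 54.4 and 19.7 CPM, below their level in the other cells (209 and 138 CPM, 260 and 293 CPM). Ribosomal protein genes lay within 2-fold in marker-low cells, with a median of -0.10 over 27 genes.

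Other myeloid cells of the same libraries shared part of the pattern. In C1q-low myeloid cells Cxcl2 stood at 198 (f/f) and 3780 (d/d) CPM, and in dendritic cells at 31.8 and 428. Ptgs2 stood at 85.0 and 472 CPM in the C1q-low myeloid cells and at 132 and 465 in dendritic cells. Il1b stood at 1017 and 1314 CPM and at 787 and 1769 CPM, so in f/f both neighbours exceeded the 466 CPM of marker-low macrophages. Gpnmb and Fabp5 were higher in C1q-low myeloid cells (3.54 and 149 CPM, 49.6 and 562 CPM) but not in dendritic cells (1.52 and 1.26 CPM, 24.3 and 31.4 CPM). The resident genes were low in both neighbours: Mrc1 stood at 88.6 and 71.1 CPM in C1q-low myeloid cells, and Ccl8 at 17.7 and 2.37. With 1 library per genotype, no difference between macrophages and these cells was tested.

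The difference in the inflammatory list ran through most cells, and that in the lipid list through the upper part of them. Summed over its 24 genes and 1000 UMIs per cell, the median of marker-low macrophages was 2 UMIs for f/f (10th to 90th percentile 0 to 6) against 11 for d/d (4 to 22). The resident list, summed per cell without Igf1, had medians of 6 and 3, and the immediate early list of 14 and 30. For the lipid and lysosome list the medians were 14 and 19, and the 90th percentiles 28 and 49.1. The antigen presentation list had medians of 30 and 29 with nearly the same spread. Across cells of 1 library, which share that library and are thinned to equal depth, the antigen presentation and lipid sums ran opposite to each other (Spearman's rho -0.45 over 145 f/f and -0.64 over 230 d/d cells). The resident and antigen presentation sums had a rho of -0.47 in f/f and -0.27 in d/d. The inflammatory and immediate early sums had a rho of 0.49 and 0.22.

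**Figure D5:**
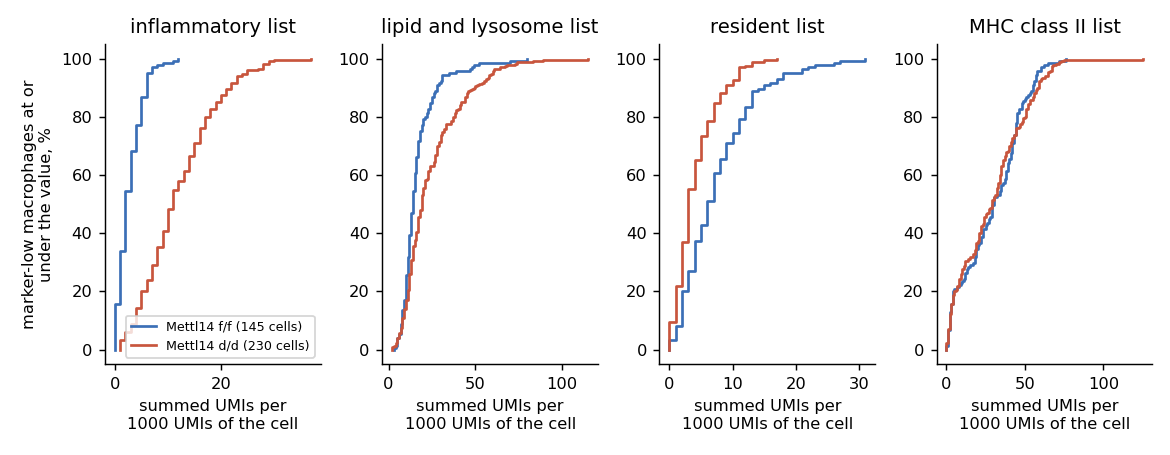
Cumulative percent of marker-low macrophages (y axis) at or under a given summed UMI count of 4 gene lists per 1000 UMIs of the cell (x axis), f/f in blue (145 cells) and d/d in red (230 cells). The d/d curve lies to the right over the whole range for the inflammatory list and mainly in the upper part for the lipid and lysosome list. It lies to the left for the resident list, summed without Igf1. For the antigen presentation list (panel titled MHC class II) it lies on top of the f/f curve.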

How the data were processed

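Cells of 2 whole uteri preparations were captured with a 10x Genomics 3′ kit, 1 library per genotype, after digestion for up to 30 min and a 40 μm strainer, per the labels' protocols. The deposited values are UMI counts per gene and barcode, which the authors made with Cell Ranger 3.0.1 on mm10, per the submitters' processing notes. The headers of the matrices give another version, 6.0.1, so the version used is not settled. Depth was 55080123 UMIs in 8164 barcodes (f/f) and 44745031 in 6661 (d/d), and 8 barcodes were shared by the libraries, 0 of them among macrophages.

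Macrophages were gated as described in the report, and their UMIs were summed per library and scaled to CPM. Ratios have conditional exact intervals and shares exact binomial (Clopper-Pearson) intervals, at 95%. PCR duplicates are collapsed by UMI, and cells are not replicates, so no p-value is given. A gene was measured with 50 or more UMIs and past the threshold at 2-fold. A group at 0 was set to 3 counts for its ratio, while interval limits used the 0. Detection was compared after thinning each cell to 1000 UMIs with a fixed seed. Doublets were marked, not removed, with Scrublet in scanpy 1.11.5 at 0.8% per 1000 barcodes. TMM factors came from edgeR 4.0.16. Python 3.11.15 with scipy 1.17.1 and numpy 2.4.6 was used. Ratios and intervals were tested on simulated counts drawn independently for each gene. That simulation lacks the uneven spread of UMIs over cells, so it cannot show how the intervals hold for genes concentrated in few cells.

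Named genes were Mettl14, the 8 gate genes, the 20 most enriched, the 12 highest and 12 lowest by the interval bound nearest no difference (at least 50 UMIs and 20 CPM), up to 6 per direction of each of 24 lists, and list members whose role is described. The same ranking was added for marker-low cells. The members, lists and this choice of cells were made with earlier results of these data known. List genes not found by their symbol in the matrix were not used here. Alternatives were TMM scaling, totals without mitochondrial and ribosomal protein genes, a minimum of 2000 UMIs, 10 C1q UMIs, removal of marked doublets, thinning, free RNA subtraction and gene minimums of 20 and 200 UMIs.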

Additional observations from a re-analysis of the deposited data

How the results depend on the processing

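No paired analysis was possible because each genotype is 1 library. None of the named genes and list medians past 2-fold changed sign under the alternatives run, but over all genes 9 of the 696 past it and measured in marker-low cells had the opposite sign there. The ratio of macrophage shares, 1.36, became 1.96 with a minimum of 2000 UMIs and 1.91 in marker-low cells, and it lay within its interval with 10 C1q UMIs (1.59) or without marked doublets (1.41). The count of genes at least 2-fold higher, 614, became 978 with TMM scaling, 375 in marker-low cells, 202 with cells thinned to 1000 UMIs and 295 with at least 200 UMIs per gene. The count of genes at least 2-fold lower, 828, became 431, 220, 110 and 154 under the same settings and 1695 with at least 20 UMIs per gene. Among the 1071 measured genes with at least 2 times the CPM of the other cells, an alternative added after seeing the data, 434 were higher and 19 lower. The median log2 ratio, -0.21, became 0.14 with TMM scaling, -0.35 with totals without mitochondrial and ribosomal protein genes, -0.045 with thinned cells and -0.0107 with at least 200 UMIs per gene. Fewer genes are measured after thinning and with the higher minimum. Otherwise the cause was not tested. Of the list medians under the alternatives, 158 lay within 0.58 log2 of the main value and 32 moved by more, 11 of them in marker-low cells and 11 with free RNA subtracted. The amount subtracted was set by stromal markers at 59.7% of f/f and 23.3% of d/d macrophage UMIs. It counts every stromal marker UMI of all macrophages, so it cannot tell free RNA from barcodes that hold 2 cells. In f/f, stromal markers summed to 503 CPM in marker-low macrophages, 5506 in all macrophages and 9220.5 in the other kept cells. For named genes 918 values lay within the main interval and 672 outside it, most often with free RNA subtracted (146 outside, 50 within), in marker-low cells (143 and 52), with thinning (128 and 71) and with TMM scaling (90 and 110). Depth limits f/f most: the 145 marker-low cells hold 294293 UMIs against 1066850 in d/d, so a gene with few f/f UMIs has a wide interval.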

Other observations

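Some of the genes that differed most in marker-low macrophages belong to none of the groups described in the report. Gadd45b, a stress-induced signalling protein, stood at 119 CPM in f/f and 1273 in d/d, a log2 ratio of 3.42 (2.94 to 3.95), and was also higher in the other d/d cells (26.9 and 495 CPM). Ifrd1 stood at 234 and 2268 CPM in macrophages and at 81.4 and 327 CPM in the other cells. Dusp5, a phosphatase of the MAP kinase pathway, had 5 and 318 UMIs. Mir155hg, a microRNA host transcript, had 0 and 87 UMIs in marker-low cells. Txnip, an inhibitor of thioredoxin, was lower at 561 and 89.98 CPM, and the lysosomal amidase Naaa at 187 and 30.0 CPM. Txnip stood at 259 and 211 CPM in the other cells. The large barcodes of the f/f library were almost all marker-rich: of 36 f/f macrophages with 5000 to 10000 UMIs 2 were marker-low, and of 24 above that 0 were, against 85 of 110 and 6 of 18 in d/d.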
